A study of Homo sapiens with 24 samples.

Results

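HEK293T cells in which the long non-coding RNA gene MIR210HG had been knocked out were compared with WT cells at normal oxygen. HEK293T is an established human embryonic kidney line that carries the large T antigen of a simian virus. The comparison takes the 4 MIR210HG-KO and the 4 WT libraries of the normoxia table, 8 of the 24 libraries of the series, by the names of their columns. Both groups were kept at 21% O2 for 24 h in high-glucose DMEM with fetal bovine serum, so the knockout is the one labelled difference between them. The other libraries are WT and MIR210HG-KO cells at 1% O2 for 24 h, and MIR210-KO cells, which lack the microRNA gene, at both oxygen levels, 4 libraries a group. The labels give neither the deleted interval nor whether the knockout is 1 clone or a pool. They do not say whether the 4 libraries of a group came from separate cultures. The p-values therefore measure only the spread between libraries of a group, which may be technical. That spread was estimated over all 24 libraries.

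MIR210HG is transcribed from the region of miR-210, a microRNA made from the same strand. Hypoxia-inducible factors raise both when oxygen falls, and miR-210 then represses transcripts of mitochondrial respiration, iron-sulphur cluster assembly and the cell cycle. In normal oxygen these factors are hydroxylated and destroyed, and both RNAs are low. Several gene groups below belong to the integrated stress response, in which kinases that sense amino acid shortage or misfolded protein phosphorylate the initiation factor eIF2, the transcription factor ATF4 is translated, and ATF4 raises genes for amino acid synthesis, uptake and transfer RNA charging.

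The mature forms of miR-210 are shown because the gene lies within MIR210HG, so a deletion of the host can remove them. RefSeq (GRCh38.p14) places miR-210-3p at chr11:568112-568133 and miR-210-5p at chr11:568150-568171, both on the minus strand. Capitals mark the seed, bases 2 to 8, which pairs with target transcripts; the arms have different seeds.
miR-210-3p: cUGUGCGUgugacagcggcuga
miR-210-5p: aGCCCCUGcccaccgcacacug

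Total counts were 26330323 to 31547054 in the WT libraries and 25556776 to 28040589 in the MIR210HG-KO libraries. The first principal component held 49.8% of the variance and separated the genotypes. The second held 12.1% and set MIR210HG-KO 3, at 43.92, apart from its mates, at -22.88 to -6.36. In MIR210HG-KO 3, 1207 of 11216 genes (10.8%) lay more than 1.25-fold outside the range of the other 3 libraries of its group, against 11 to 33 genes in each other library. Its departure followed GC content: the median log2 ratio to its mates was 0.20 in the quartile of genes with the lowest transcript GC and -0.30 in the highest. The effect of this library on each result below was measured by leaving it out, and the value without it is given where the call of a described gene was lost or a count moved by more than 1.5 times. Smaller shifts in the counts of the gene lists are not printed.

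**Figure D1:**
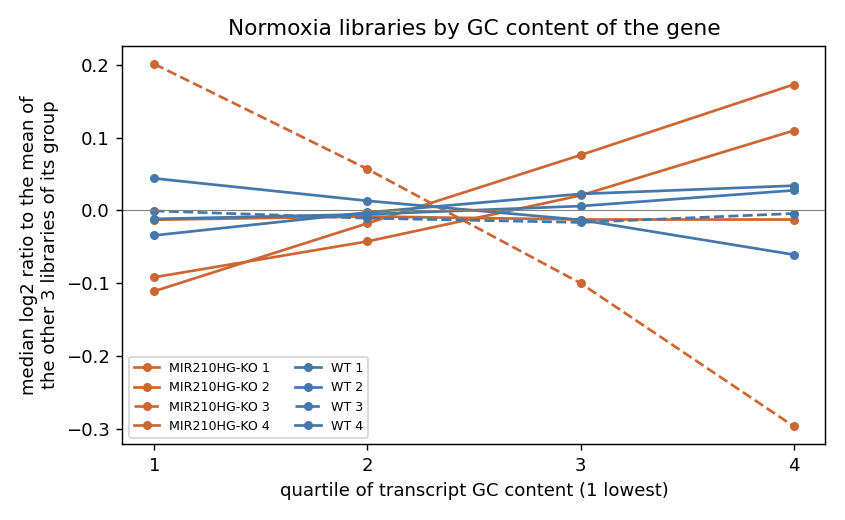
Median log2 ratio of each normoxia library to the mean of the other 3 libraries of its group (vertical axis), by quartile of transcript GC content (horizontal axis). MIR210HG-KO 3 (orange, dashed) falls from 0.20 to -0.30, and the other 7 libraries stay between -0.11 and 0.17.

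The cells expressed the markers chosen for HEK293T, at a lower summed level in the knockout. The 10 genes summed to 630 to 661 CPM (counts relative to the library total, with edgeR's scaling between libraries) in WT and 396 to 414 CPM in MIR210HG-KO. Markers of blood and endothelium summed to 4.52 to 5.57 CPM in WT and 5.33 to 6.45 CPM in the knockout over 20 genes, with HBG1, HBG2 and CD3E among those at 0 counts in both. Fibroblast and muscle markers summed to 46.3 to 49.9 CPM and 34.6 to 44.4 CPM over 15 genes. Pluripotent and germ cell markers summed to 130 to 145 CPM and 108 to 128 CPM over 15 genes, with KLF17, DAZL and DPPA3 at 0 counts in both. Markers of other cell types were tested where they passed the filter on low counts. Over all genes tested 35.2% were called (adjusted p under 0.05 in edgeR's quasi-likelihood test), 15.6% higher and 19.6% lower. For blood and endothelium none of 5 was called (1 was higher without MIR210HG-KO 3). For fibroblast and muscle 1 was higher and 4 lower of 8 (2 lower without MIR210HG-KO 3, MIR210HG-KO 4, WT 2 or WT 4). For pluripotent cells 1 was higher and 3 lower of 5. The pluripotent marker that was higher lost its call without MIR210HG-KO 3, MIR210HG-KO 4, WT 1, WT 2 or WT 4. The part of these differences in the results was not tested.

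MIR210HG itself (ENSG00000247095, chr11:565660-568457, minus strand) had 6.00, 6.34, 4.83 and 5.63 CPM in the 4 WT libraries and 0 counts in every MIR210HG-KO library. Over the group this was 613 counts against 0, at least 196-fold lower, taking 3 counts over the group (0.0291 CPM) as the limit that 0 counts allow. In the hypoxia libraries the same cells gave 2794 counts against 0, at least 825-fold lower. The labels and the counts of the target therefore match in all 8 libraries. The annotated precursor, MIR210 (chr11:568089-568198), had 3 counts in WT and 0 in MIR210HG-KO in normoxia, too few to be tested. The library kit named in the labels is one for long RNA, and the level of the mature microRNA was not measured.

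Genes next to the deleted locus moved in both directions. Of 80 genes whose start lies within 500 kb of MIR210HG, 52 were tested beside MIR210HG. Here "called" means an adjusted p under 0.05 in edgeR's quasi-likelihood test. Of the neighbours, 8 rose, 12 fell and 32 were not called, and their median log2 change was -0.13. Over all genes tested 35.2% were called, 15.6% higher and 19.6% lower, so the share of neighbours called was near the background. RASSF7, which encodes a Ras-association domain protein and starts next to MIR210HG, had 17.7, 15.9, 14.9 and 13 CPM in WT and 22.1, 21.4, 15.2 and 20.6 CPM in the knockout (0.37 ± 0.11, adjusted p = 0.012). The RING finger gene PHRF1 had 89.8, 91.7, 94.1 and 92.2 CPM in WT and 127, 117, 93.1 and 113 CPM in the knockout (0.29 ± 0.07). MIR210HG-KO 3 lay within the WT range for both, and the call for RASSF7 was lost without WT 4. The transcription factor gene DEAF1 (-0.69 ± 0.08) and TMEM80 (-0.85 ± 0.08) were lower with no overlap between libraries, and the GTPase gene HRAS was higher (0.32 ± 0.09). DEAF1 and TMEM80 overlap on opposite strands, so reads of one cannot be told from reads of the other.

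Loss of MIR210HG came with a broad change of the transcriptome at normal oxygen. Of 19952 genes tested, 7019 (35.2%) were called, 3107 higher and 3912 lower, and in 5994 (30.0%) the called groups did not overlap. The excess of lower calls depended on the scaling between libraries: another scaling (RLE) gave 3579 higher and 3570 lower. Most differences were small: 257 rises and 884 falls passed 2-fold, and 45 rises and 233 falls passed 4-fold. Large changes were therefore mostly losses. Values after ± for single genes are standard errors of the log2 fold change, MIR210HG-KO against WT, with 4 libraries a group. The spread behind them was estimated in the fit of all 24 libraries. The median over all genes was -0.01.

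Several genes were almost silent in the knockout. CPNE7 (chr16:89575768-89597246), a copine that binds membranes when calcium rises, had 9.54, 9.63, 7.81 and 8.19 CPM in WT and 0, 0.0384, 0 and 0 CPM in MIR210HG-KO. That was 946 counts against 1, a 909-fold difference with a 95% counting interval of 163 to 35935. MFAP2 (chr1:16974502-16980835), a protein of the microfibrils that scaffold elastic fibres, had 7.21, 7.19, 6.07 and 7.67 CPM in WT and 757 counts against 2, a 364-fold difference (100 to 3008). In both genes a single MIR210HG-KO library held the remaining counts. The membrane protein gene TMEM178B (chr7:141074232-141480380) fell from 28.1, 28.4, 29 and 27.1 CPM to 0.116, 0.230, 0.149 and 0.369 CPM (-7.02 ± 0.18, adjusted p = 3.8e-24). The proteoglycan gene SPOCK3 had 159 counts in WT and 0 in the knockout, at least 50.9-fold lower. These genes lie on 4 different chromosomes.

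Other strong falls were in genes of several kinds. DDR2, a receptor tyrosine kinase that binds collagen, had 182, 173, 182 and 190.3 CPM in WT and 15.4, 16.4, 17.2 and 16.4 CPM in the knockout (-3.48 ± 0.08). TENM1, a teneurin adhesion protein of neurons, had 57.2, 61.3, 60.2 and 62.5 CPM in WT and 6.94, 7.49, 8.28 and 6.92 CPM in the knockout (-3.02 ± 0.13). MAOA, the mitochondrial enzyme that oxidises serotonin and noradrenaline, had 5.49, 6.10, 6.19 and 6.19 CPM in WT and 0.540, 0.615, 0.373 and 0.369 CPM in the knockout (-3.65 ± 0.25). For these 3 genes every knockout library was far below every WT library. CYBA, a membrane subunit of NADPH oxidase, changed by -3.62 ± 0.20. The exocytosis regulator STXBP6 changed by -3.74 ± 0.16, the retroviral-like gene PNMA3 by -3.86 ± 0.18, and the neurexin-family gene CNTNAP2 by -2.69 ± 0.09. Secreted ligands were among them: CALCB, a calcitonin gene-related peptide (-2.88 ± 0.13), ADM2, an adrenomedullin relative (-2.83 ± 0.14), and BMP2, a bone morphogenetic protein (-2.57 ± 0.15). PLXDC2 (-2.87 ± 0.10), CDYL2 (-2.79 ± 0.18), the nuclear receptor RORB (-2.71 ± 0.16) and the red cell membrane protein GYPC (-2.68 ± 0.14) also fell. CALCB, CNTNAP2, PLXDC2, CDYL2 and TENM1 overlap other annotated genes, and the counting's strand setting is not given, so their values may hold reads of those genes. This holds for 219 of the 360 genes that the rule for named genes takes in, 177 of them for a gene on the other strand.

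Among protein-coding genes at 5 CPM or more in the knockout, the rises reached 3.20 on the log2 scale, apart from MAGEA12 and CSAG1, described below. CXCL12, the chemokine that binds CXCR4, had 0.472, 0.723, 0.541 and 0.445 CPM in WT and 5.25, 4.46, 5.07 and 5.28 CPM in the knockout (3.20 ± 0.26). PSMD5, a chaperone of proteasome assembly, had 4.82, 4.21, 5.03 and 4.86 CPM in WT and 16.3, 15.6, 19.2 and 18.5 CPM in the knockout (1.88 ± 0.11). RUNX3, a transcription factor of T cells and nerve, had 3.98, 3.13, 3.25 and 3.45 CPM in WT and 11.8, 12, 7.75 and 12.2 CPM in the knockout (1.66 ± 0.17). MIR210HG-KO 3 was the lowest knockout library for RUNX3 and still lay above every WT library. FAM84B was abundant in both genotypes, at 73.4 to 77.9 CPM in WT and 218 to 231 CPM in the knockout (1.58 ± 0.04). The WNT receptor gene FZD10 rose by 1.48 ± 0.12, and LOXL1, which cross-links elastin, by 1.37 ± 0.12. Zinc finger genes were in the same group: ZSCAN18 (1.59 ± 0.10), ZNF160 (1.35 ± 0.09) and ZNF331 (1.27 ± 0.09). So were MXRA8, a surface protein that some alphaviruses bind (1.34 ± 0.11), HSPA2, a testis-enriched HSP70 (1.22 ± 0.13), the lipid carrier gene APOE (1.15 ± 0.12), CHIC1 (1.40 ± 0.10), CD101 (1.22 ± 0.13) and COLQ, the collagen tail of acetylcholinesterase (1.11 ± 0.14).

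**Figure D2:**
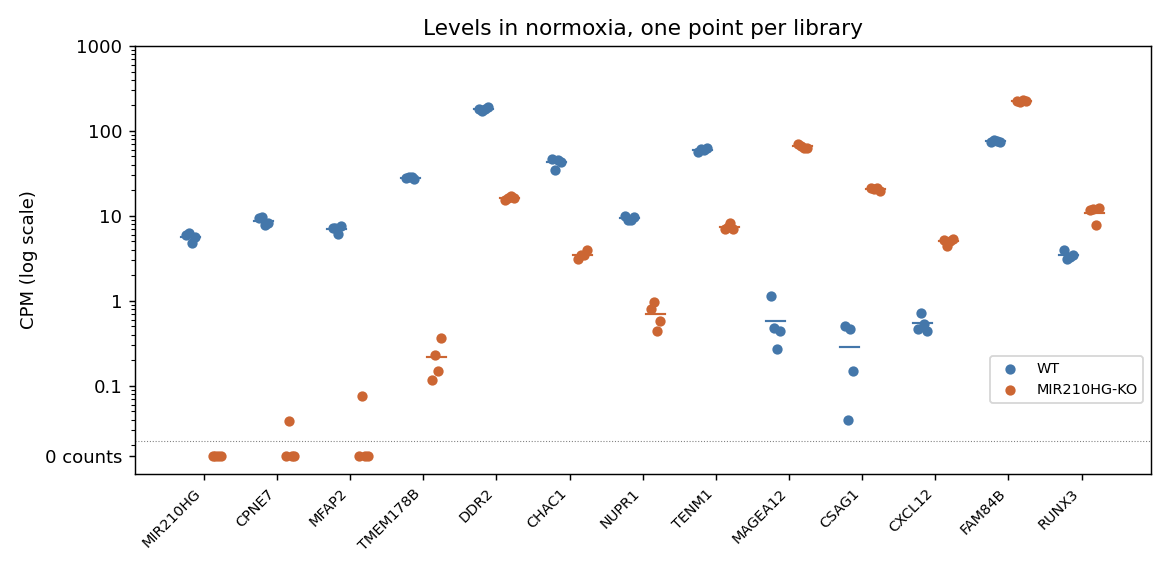
CPM on a log scale (vertical axis) of 13 genes in the 4 WT (blue) and 4 MIR210HG-KO (orange) normoxia libraries, 1 point per library, with points at 0 counts drawn under the dotted line. Horizontal bars are group means and are left out where a library had 0 counts. The genotypes do not overlap in any gene shown, with MIR210HG at 0 counts in all 4 knockout libraries and MAGEA12 at 63 to 70.1 CPM there.

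Non-coding RNAs changed too. LINC02381 had 23.5, 24.1, 23.6 and 22.9 CPM in WT and 0.540, 0.807, 0.522 and 1.07 CPM in the knockout (-5.01 ± 0.13). ASNSP1, a pseudogene of asparagine synthetase, changed by -3.88 ± 0.14. Its reads may come from the parent gene ASNS, which also fell and is described below. NRAV, an RNA known to restrain interferon-stimulated genes, had 6.54, 5.70, 6.07 and 6.15 CPM in WT and 22.5, 21.7, 22.3 and 22 CPM in the knockout (1.85 ± 0.10). DPY19L2P1 (-4.83 ± 0.34) and LINC01976 (-2.67 ± 0.25) fell, and CICP16 (1.76 ± 0.27), FZD10-DT (1.27 ± 0.14) and ARHGAP5-AS1 (1.26 ± 0.20) rose. FZD10-DT starts opposite FZD10, and the 2 rose together. The mitochondrial transfer RNA MT-TH was called higher (1.23 ± 0.28), with 0.83 without MIR210HG-KO 3, its highest library.

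Among abundant transcripts, cytosolic chaperones gained most in CPM. HSP90AA1 had 1996, 2008, 2072 and 2131 CPM in WT and 2983, 3018, 3342 and 2985 CPM in the knockout (0.59 ± 0.06). HSPA8, the constitutive HSP70, had 1124, 1234, 1116 and 1154 CPM in WT and 1844, 1811, 1939.9 and 1778 CPM in the knockout (0.67 ± 0.06). The nucleosome-binding protein gene HMGN1 (0.89 ± 0.06), the ribosomal protein gene RPL15 (0.30 ± 0.06) and ACTB, cytoplasmic actin (0.22 ± 0.07), were the other largest gains. The call for ACTB was lost without MIR210HG-KO 1 or without MIR210HG-KO 2. The elongation factor gene EEF2 lost most, from 6787, 6712, 6491 and 6675 CPM to 5001, 4694, 3480.2 and 4481 CPM (-0.59 ± 0.07). Mitochondrial transcripts MT-CO1 (-0.29 ± 0.06), MT-RNR2 (-0.56 ± 0.07) and MT-CO3 (-0.21 ± 0.08) and the DNA repair kinase gene PRKDC (-0.62 ± 0.08) followed. MT-CO3 was near the threshold (adjusted p = 0.049) and was not called without MIR210HG-KO 3 (adjusted p = 0.12) or in 6 of the 7 other fits that left out a library.

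Among protein-coding genes at 5 CPM or more in the knockout, the largest rises were in a pair of cancer-testis antigens, proteins normally made in germ cells. MAGEA12 (chrX:152733779-152737669) had 1.15, 0.482, 0.271 and 0.445 CPM in WT and 70.1, 67.2, 63 and 63.3 CPM in the knockout (6.76 ± 0.16, adjusted p = 7.0e-25). CSAG1 (chrX:152727484-152733735) had 0.506, 0.0401, 0.464 and 0.148 CPM in WT and 21.1, 20.7, 21.5 and 19.7 CPM in the knockout (6.11 ± 0.23, adjusted p = 1.2e-19). Both genes went from about 1 CPM or less in every WT library to well above it, and MIR210HG-KO 3 lay with its mates. CSAG4 had 1 count in WT and 131 in the knockout, a 136-fold difference (95% counting interval 24.0 to 5426). It lies over MAGEA12 on the same strand, so its reads cannot be assigned with certainty. CSAG3, at 4.82 to 6.71 CPM in the knockout, rose by 2.27 ± 0.22. In the cluster of MAGE-A and CSAG genes on the X chromosome, 10 of 17 genes were tested, 6 were higher and 2 lower, with a median of 2.90. That is 80% called, beside 35.2% of all genes, of which 15.6% were higher and 19.6% lower. The genes that fell were MAGEA6 (-3.74 ± 0.49) and MAGEA3 (-2.87 ± 0.65), both under 1.2 CPM in every library. MAGEA2 (3.21 ± 0.60) and its near-identical copy MAGEA2B (3.34 ± 0.68) were called higher at under 1.2 CPM. Members of this family share sequence, and the values of the low members are uncertain.

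The promoters of MAGEA12 and CSAG1 are shown because their windows overlap. Their RefSeq starts lie 36 bases apart on opposite strands, and the 300-base windows (250 before to 50 after the start, GRCh38.p14) overlap over 135 bases, chrX:152733672-152733806. Capitals mark each CpG, of which the MAGEA12 window has 9 and the CSAG1 window 16, against a median of 26 over the 12566 promoters of tested genes. Methylation was not measured here.
MAGEA12, chrX:152733507-152733806, plus strand: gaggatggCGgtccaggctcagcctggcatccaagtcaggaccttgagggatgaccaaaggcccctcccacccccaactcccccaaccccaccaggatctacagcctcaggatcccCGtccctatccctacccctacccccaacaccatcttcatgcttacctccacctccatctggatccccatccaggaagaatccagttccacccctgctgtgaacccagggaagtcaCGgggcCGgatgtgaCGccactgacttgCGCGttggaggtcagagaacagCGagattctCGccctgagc
CSAG1, chrX:152733672-152733971, minus strand: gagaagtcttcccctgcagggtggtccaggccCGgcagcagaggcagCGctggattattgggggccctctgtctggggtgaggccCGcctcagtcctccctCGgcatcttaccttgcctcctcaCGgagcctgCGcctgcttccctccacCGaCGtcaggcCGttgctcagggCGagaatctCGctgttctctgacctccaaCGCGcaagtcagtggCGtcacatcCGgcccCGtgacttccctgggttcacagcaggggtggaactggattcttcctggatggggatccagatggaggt

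Other cancer-testis antigens moved both ways. Of 53 genes in that list 11 were tested, and 3 were higher and 5 lower (3 lower without MIR210HG-KO 1). MAGEB2 fell (-1.88 ± 0.13), with 10.3 to 12.9 CPM in WT and 2.53 to 3.62 CPM in the knockout. STK31 (-3.44 ± 0.48) fell from under 1.4 CPM, and MAGEC2 fell from 40 counts to 2 over the group. Of 29 imprinted genes tested 6 were higher and 6 lower, with 3 lower when WT 2 or WT 4 was left out. The share called was 72.7% for these antigens and 41.4% for imprinted genes, beside 35.2% of all genes. At the imprinted cluster of chromosome 11, PHLDA2, a growth restrainer of placenta (1.32 ± 0.19), CDKN1C, a cell cycle inhibitor (0.72 ± 0.14), and the growth factor gene IGF2, at under 0.75 CPM in every library (2.07 ± 0.55), were higher.

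Some of the changes were arranged along chromosomes. In windows of 10 Mb with at least 10 tested protein-coding genes, 22 of 293 windows had a median past 0.4 on the log2 scale, 7 higher and 15 lower. Joined, they made 10 segments. Their 806 genes were called in 82.0% of cases, and the 13731 protein-coding genes elsewhere in 38.9%. The windows were picked by these same changes, so a higher share inside them follows from the choice and is no separate support. On chromosome 9, from 0 to 40 Mb, 117 of 150 genes were lower and 2 higher, with a median of -0.46. On chromosome 7, from 130 to 160 Mb, 104 of 127 were lower (median -0.64). On chromosome 4, from 160 to 190 Mb, 56 of 64 were lower (median -0.65), and on chromosome 10, from 0 to 20 Mb, 65 of 70 (median -0.54). On chromosome 18, from 20 to 40 Mb, 52 of 56 were lower (median -0.70), and on chromosome 13, from 70 to 80 Mb, 21 of 22 (median -0.88). The segments with higher medians were on chromosome 14, where 92 of 125 genes from 30 to 60 Mb (median 0.42) and 79 of 113 from 90 to 110 Mb (median 0.44) were higher. On chromosome 13, from 110 to 120 Mb, 22 of 27 genes were higher (median 0.46), and on chromosome 21, from 30 to 40 Mb, 31 of 52 (median 0.40). Over all of chromosome 14, 333 of 475 tested genes were higher and 31 lower, with a median of 0.41. DNA copy number was not measured here.

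In the hypoxia libraries the segments kept the sign of their medians, which were -0.55 (chromosome 9), -0.65 (chromosome 7), -0.77 (chromosome 4), -0.61 (chromosome 10), -0.64 (chromosome 18), -0.90 and 0.44 (chromosome 13), 0.35 and 0.38 (chromosome 14) and 0.32 (chromosome 21). MIR210-KO cells, compared with the same WT libraries in normoxia, had medians of 0.14, -0.63, 0.35, 0.13, -1.17, -1.01, 1.12, 0.05, 0.07 and -0.11 in the same order. Named genes of these segments included TMEM178B on chromosome 7 and SPOCK3 and SORBS2 (-5.92 ± 0.40), an adaptor of the actin cytoskeleton, on chromosome 4. PLXDC2 lies in the segment of chromosome 10, and GLDC, the glycine-cleaving decarboxylase of mitochondria, in that of chromosome 9, with 64.7, 62.5, 62.9 and 64.4 CPM in WT and 12.5, 11.3, 11.5 and 10.0 CPM in the knockout (-2.49 ± 0.07). On chromosome 13 KCTD12, an auxiliary subunit of GABA-B receptors, had 291, 309, 311 and 313 CPM in WT and 76.5, 72.6, 70.6 and 82.5 CPM in the knockout (-2.02 ± 0.05), and the endothelin receptor gene EDNRB fell (-2.95 ± 0.29). COL4A2, a basement membrane collagen (0.72 ± 0.07), and LAMP1, a lysosomal membrane protein (0.74 ± 0.06), rose in the other segment of that chromosome. The laminin gene LAMA3 (-1.72 ± 0.09) and the ubiquitin ligase gene RNF125 (-1.64 ± 0.08) fell on chromosome 18. TECPR2 on chromosome 14 (1.01 ± 0.07) and the kinase gene DYRK1A on chromosome 21 (1.00 ± 0.06) rose. Some genes of the raised segments were lower: 6 of 125 and 6 of 113 on chromosome 14 and 5 of 52 on chromosome 21. They included MDGA2 on chromosome 14, with 123 counts in WT and 1 in the knockout, and RIPPLY3 on chromosome 21, with 62 and 0.

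**Figure D3:**
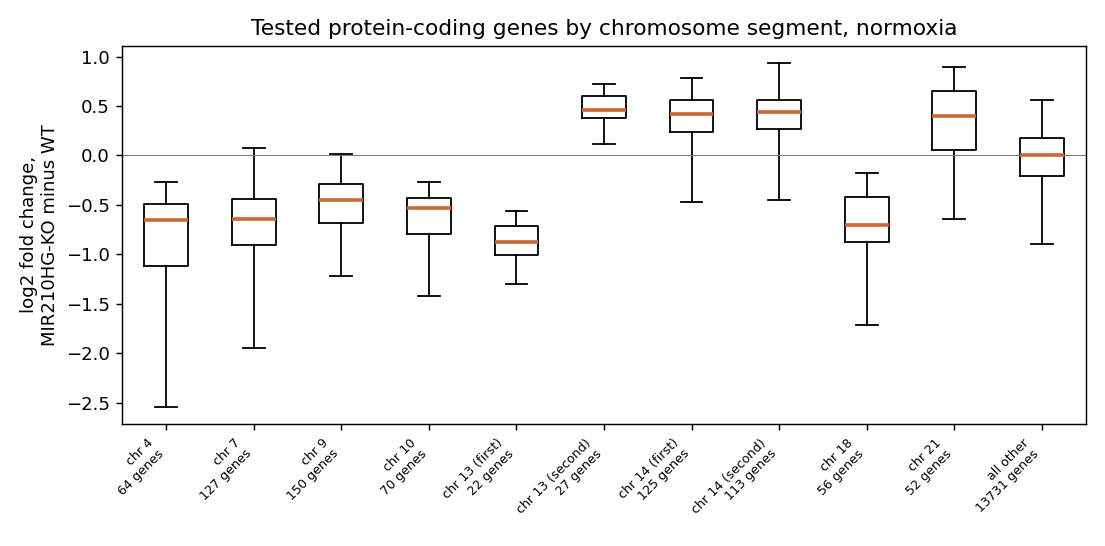
Log2 fold change of tested protein-coding genes, MIR210HG-KO minus WT in normoxia (vertical axis), in the 10 chromosome segments and in all other genes (horizontal axis, with the number of genes). Boxes span the quartiles, orange lines are medians and whiskers run from the 5th to the 95th percentile. Segment medians run from -0.88 to 0.46.

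Many genes of the integrated stress response were lower in the knockout. Over the 5 lists of this response together, 77 of 130 tested genes fell, 8 rose and 45 did not pass the test, and their median was -0.46, beside 19.6% lower, 15.6% higher and a median of -0.01 over all genes. Of the 130, 4 lie in the segments above. Among the regulators, 9 of 18 were lower and 1 higher (median -0.51). In bulk samples, fewer cells of a type and less RNA per cell cannot be told apart. The lists were chosen with results of these data known, so their counts are a description.

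ATF4, the transcription factor that drives the response, had 1037, 977, 1008 and 991 CPM in WT and 733, 712, 699 and 677 CPM in the knockout (-0.51 ± 0.06, adjusted p = 6.6e-08). The highest knockout library lay below the lowest WT library. ATF3, a repressor that ATF4 raises, had 94.1, 103, 87.5 and 96 CPM in WT and 33.8, 32.5, 32.7 and 33.8 CPM in the knockout (-1.52 ± 0.07). NUPR1, a small chromatin protein of stressed cells, had 9.98, 8.91, 8.90 and 9.71 CPM in WT and 0.810, 0.960, 0.447 and 0.574 CPM in the knockout (-3.74 ± 0.19). DDIT3, which encodes CHOP (-0.96 ± 0.13), the ATF4 inhibitor TRIB3 (-0.72 ± 0.07), CEBPB (-0.98 ± 0.09) and JDP2 (-1.05 ± 0.11) were lower with no overlap. The exception was ATF5, which is itself translated under stress: it had 9.61, 10.4, 10.1 and 9.82 CPM in WT and 17.5, 18.4, 18.9 and 18 CPM in the knockout (0.86 ± 0.08).

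Effectors of the response fell more. Of 33 tested, 22 were lower and 4 higher, with a median of -0.72, beside 19.6% lower and 15.6% higher over all genes. CHAC1, which degrades glutathione, had 46.4, 34.9, 45.8 and 43.4 CPM in WT and 3.12, 3.50, 3.43 and 3.93 CPM in the knockout (-3.61 ± 0.12, adjusted p = 2.0e-21). SESN2 (201 to 241 CPM in WT, 63.6 to 77.9 CPM in the knockout, -1.62 ± 0.07) and DDIT4 (-1.65 ± 0.10) restrain mTORC1, and EIF4EBP1 (-0.87 ± 0.08) restrains translation initiation. The secreted factors STC2 (-1.42 ± 0.05), INHBE (-2.17 ± 0.22) and FGF21 (-3.29 ± 0.66, under 0.9 CPM in every library) were lower, as was BBC3, an inducer of apoptosis (-1.09 ± 0.11). DDR2, the collagen receptor described above, is in this list and has another known role.

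Genes of amino acid synthesis, uptake and transfer RNA charging were also more often lower than higher, to a different extent in each step. The counts of this paragraph stand beside 19.6% lower and 15.6% higher over all genes. Of 32 enzymes of synthesis, 21 were lower and 1 higher (median -0.53). ASNS, which makes asparagine, had 22, 19.5, 19.2 and 19.5 CPM in WT and 5.40, 5.11, 4.36 and 5.86 CPM in the knockout (-1.96 ± 0.12). PSAT1, of the serine pathway, had 493, 460.1, 489 and 496 CPM in WT and 211, 205, 245 and 227 CPM in the knockout (-1.12 ± 0.06), and PHGDH, its first enzyme, changed by -0.48 ± 0.07. PCK2, a mitochondrial carboxykinase (-1.95 ± 0.08), CTH, which makes cysteine (-1.76 ± 0.06), and ALDH1L2, a mitochondrial folate enzyme (-1.66 ± 0.08), were lower. Of 29 tested amino acid transporters, 16 were lower and 1 higher (2 without MIR210HG-KO 3, median -0.42). They included the glutamate carrier SLC1A1 (-1.53 ± 0.09), the serine carrier SLC1A4 (-1.43 ± 0.08), the cystine importer SLC7A11 (-1.33 ± 0.09) and the glycine carrier SLC6A9 (-1.30 ± 0.08). Of 20 cytosolic aminoacyl-tRNA synthetases, 11 were lower and 1 higher (2 without MIR210HG-KO 2 and 0 without WT 3, median -0.33), led by YARS (-0.76 ± 0.05), CARS (-0.68 ± 0.06), GARS (-0.59 ± 0.06) and IARS (-0.58 ± 0.05). Of 17 mitochondrial synthetases, 7 were lower and 1 higher (3 without MIR210HG-KO 3, median -0.12), and CARS2, in a raised segment of chromosome 13, was higher (0.56 ± 0.07).

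**Figure D4:**
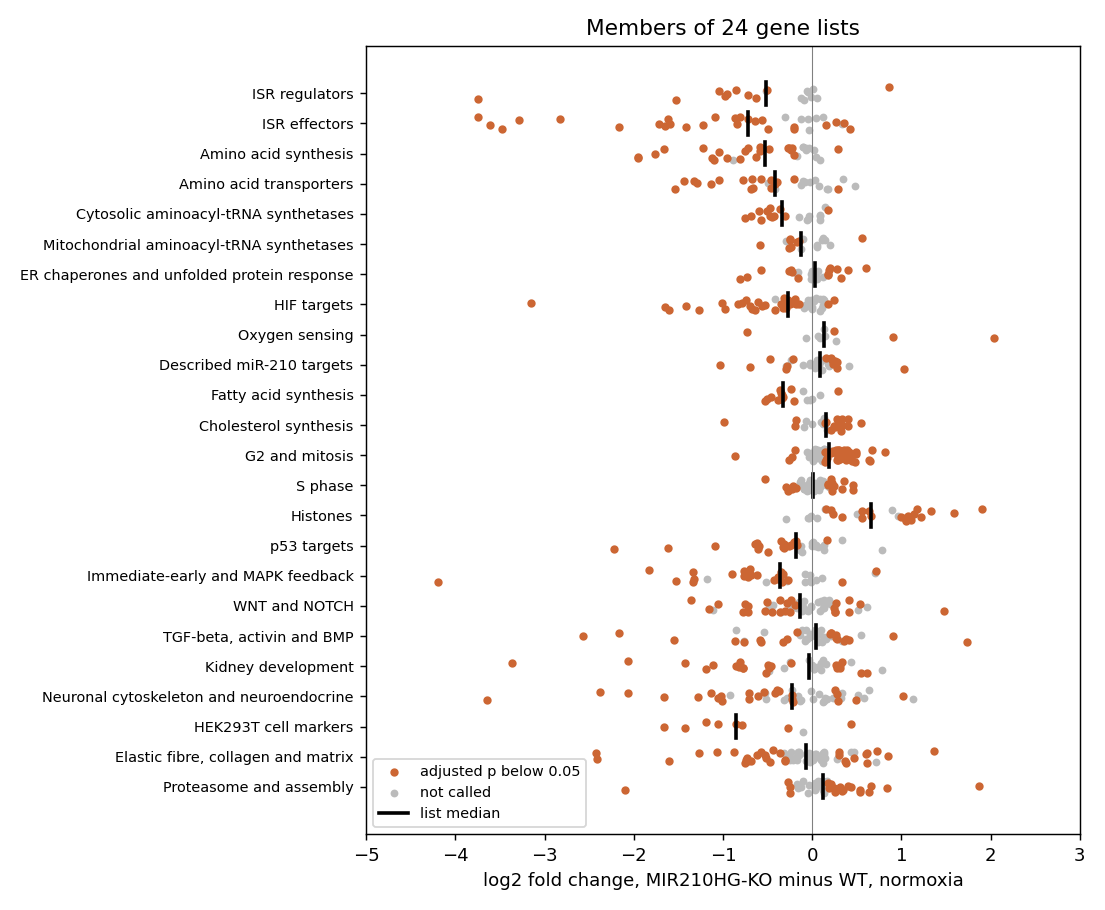
Log2 fold change of every tested member of 24 gene lists, MIR210HG-KO minus WT in normoxia (horizontal axis), 1 point per gene, orange where the adjusted p was below 0.05, with the list median as a black bar. Points past the axis limits are not drawn. The 5 stress response lists have medians from -0.72 to -0.33, and histones have a median of 0.66.

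Promoters of these genes were searched for the element that ATF4 binds as a dimer with C/EBP proteins, TGATGNAAN on either strand, where N is any base. Of 12566 promoters of tested genes, 216 (1.72%) held it. The table held promoters of 94 of the 130 tested genes of the 5 stress lists, and of 53 of the 77 that were lower, with no entry for NUPR1, SLC7A11, INHBE and ALDH1L2 among others. Of the 94 promoters, 18 (19.1%) held the motif. Among those genes the motif was in 15 of 53 promoters of genes that were lower (28.3%) and in 3 of 41 of genes that were not (7.32%). A match is a description of the letters in the window, and no binding was measured. The sites below are shown with 8 bases on each side, read along the strand that holds the motif and with the motif in capitals (RefSeq, GRCh38.p14). The first 7 are from genes that were lower, and the last 3 are the matches in genes that were not called.
CHAC1, chr15:40953253-40953277, minus strand: ggcaggagTGATGCAACggcagggg
FGF21, chr19:48755461-48755485, minus strand: ctcctcccTGATGCAATcctggtgt
ASNS, chr7:97872460-97872484, minus strand: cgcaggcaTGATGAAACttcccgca
ATF3, chr1:212565208-212565232, plus strand: ggtcaggaTGATGGAAGgctgtcat
HERPUD1, chr16:56931957-56931981, minus strand: gcacgggcTGATGCAACccgccgcg
CARS, chr11:3057410-3057434, plus strand: ctagaatcTGATGCAACcgccgccc
IARS, chr9:92293695-92293719, plus strand: cacggaggTGATGCAACgcgctgaa
GOT1, chr10:99430807-99430831, plus strand: gccgagaaTGATGCAACcaatgcaa
PPP1R15B, chr1:204412028-204412052, minus strand: gccccggcTGATGCAACctcacgct
SLC1A3, chr5:36596360-36596384, plus strand: gaaatgacTGATGCAAAgcagggtt

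The other lower genes with a match were SLC3A2, SLC7A1, MTHFD1L, SLC38A1, NARS, AARS, MARS and TARS, named here for the match and not for their change. The exact 9-base form TGATGCAAT was in 3 of the 94 promoters (3.19%) and in 19 of 12566 (0.151%). Whole promoters of CHAC1 and ASNS are shown, since these are the stress genes with a match and the strongest falls among genes above 5 CPM. In CHAC1 the match lies on the strand opposite to the gene and starts 210 bases before the start. In ASNS it lies on the gene's strand, 68 bases before the start. Capitals mark it as read on the gene's strand.
CHAC1, chr15:40953221-40953520, plus strand: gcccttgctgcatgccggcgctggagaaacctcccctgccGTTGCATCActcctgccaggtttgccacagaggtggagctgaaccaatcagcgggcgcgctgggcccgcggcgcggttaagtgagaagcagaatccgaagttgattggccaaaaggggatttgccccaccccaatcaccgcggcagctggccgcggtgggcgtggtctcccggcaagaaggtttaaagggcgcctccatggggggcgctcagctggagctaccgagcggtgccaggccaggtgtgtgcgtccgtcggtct
ASNS, chr7:97872359-97872658, minus strand: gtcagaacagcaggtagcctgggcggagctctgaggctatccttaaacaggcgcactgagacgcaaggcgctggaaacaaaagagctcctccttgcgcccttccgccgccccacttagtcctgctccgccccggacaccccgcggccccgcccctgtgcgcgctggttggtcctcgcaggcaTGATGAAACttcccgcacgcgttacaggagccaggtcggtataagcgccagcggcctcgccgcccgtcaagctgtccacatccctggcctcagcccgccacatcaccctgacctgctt

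Genes of the endoplasmic reticulum did not fall together in normoxia. Of 28 tested, 8 were higher and 7 lower, with a median of 0.03, beside 15.6% higher and 19.6% lower over all genes. HSPA5, the main chaperone of the compartment, had 496, 545, 480.3 and 523 CPM in WT and 529.9, 513, 544 and 513 CPM in the knockout (0.04 ± 0.06, adjusted p = 0.64), and its libraries overlapped. The transcription factor gene XBP1 (-0.73 ± 0.06), the degradation factor HERPUD1 (-0.81 ± 0.07) and the disulphide isomerase PDIA4, in the lowered segment of chromosome 7 (-0.57 ± 0.05), were lower, and SEL1L, an adaptor of degradation on chromosome 14, was higher (0.61 ± 0.07). In the hypoxia libraries, where 54.6% of all genes were called, 21 of the 28 were lower and the median was -0.48. There HSPA5 changed by -2.05 ± 0.06, and the difference between oxygen levels was -2.09 ± 0.08 (adjusted p = 2.3e-18).

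Many targets of hypoxia-inducible factors were lower at normal oxygen too, beside 19.6% lower and 15.6% higher over all genes. Of 47 tested, 29 were lower and 2 higher (4 without MIR210HG-KO 1, 1 without MIR210HG-KO 4 or WT 1, 0 without WT 3), with a median of -0.27. STC1, a secreted glycoprotein hormone, had 1.75, 1.73, 1.12 and 1.71 CPM in WT and 0.154, 0.192, 0.224 and 0.123 CPM in the knockout (-3.15 ± 0.28). The neuronal glucose carrier SLC2A3 had 12.4, 14.8, 7.85 and 12.8 CPM in WT and 5.13, 3.34, 3.36 and 3.89 CPM in the knockout (-1.61 ± 0.13). VEGFA, the vascular growth factor, had 107, 109.6, 102 and 105 CPM in WT and 77.8, 68.8, 71.2 and 68.2 CPM in the knockout (-0.57 ± 0.05). None of the 3 overlapped between genotypes. DDIT4, STC2 and VEGFA are also in the stress lists. CA9, a sensitive target, had 0 counts in all 8 libraries. The core of the hypoxia response element is ACGTG or GCGTG. It was in 30 of 40 promoters of the list (75%) and in 61.9% of all promoters of tested genes. Other lists had 84% (endoplasmic reticulum), 69.1% (the 5 stress lists together) and 54.5% (amino acid transporters). A high share was thus not particular to this list.

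The factors themselves moved in opposite directions. HIF1A had 76.5, 79.2, 81.1 and 77.5 CPM in WT and 139, 145, 162 and 146 CPM in the knockout (0.91 ± 0.06, adjusted p = 1.1e-13), and it lies on chromosome 14, whose median was 0.41. EPAS1, which encodes HIF-2 alpha, had 57.3, 55.8, 49.3 and 55.8 CPM in WT and 34.2, 33.4, 30.9 and 32.5 CPM in the knockout (-0.74 ± 0.06). HIF3A was called higher from under 0.6 CPM (2.04 ± 0.64) and not without MIR210HG-KO 2. The prolyl hydroxylase gene EGLN3, in a raised segment of chromosome 14, was called higher (0.25 ± 0.08) and not without WT 3. Of 10 genes of oxygen sensing, 3 were higher and 1 lower, and without MIR210HG-KO 3 these were 5 and 1. With all libraries 40% of them were called, near the 35.2% of all genes.

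Transcripts described as miR-210 targets showed no common direction. Of 30 tested, 8 were higher and 6 lower, with a median of 0.08 beside -0.01 over all genes. A share of 46.7% of them was called, against 35.2% of all genes. EHD2, a membrane remodelling ATPase (-1.04 ± 0.15), the synaptic protein gene NPTX1 (-0.69 ± 0.07) and MNT, an antagonist of MYC (-0.47 ± 0.08), were lower. BTK, a kinase of B cells, was called higher at under 1 CPM (1.03 ± 0.40, adjusted p = 0.044) and lost its call in 5 of the 8 fits that left out a library.

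Most markers of the line were lower. The counts of this paragraph stand beside 19.6% lower and 15.6% higher over all genes. Of 9 tested HEK293T markers, 7 were lower and 1 higher (median -0.85). The kidney factor gene PAX2 had 6.94, 5.62, 6.61 and 5.71 CPM in WT and 2.55, 2.27, 1.64 and 2.83 CPM in the knockout (-1.43 ± 0.15), and LHX1, of the early nephron, changed by -1.19 ± 0.13. The neurofilament genes NEFM (113 to 131 CPM in WT, 34.2 to 43.8 CPM in the knockout, -1.66 ± 0.09) and NEFL (-1.05 ± 0.05) fell, as did N-cadherin, CDH2 (-0.79 ± 0.05), and vimentin, VIM (-0.27 ± 0.07). The keratin gene KRT8 rose (0.43 ± 0.07) while KRT18, its partner, had 35.3 to 39.1 CPM in WT and 33.1 to 37.8 CPM in the knockout (-0.10 ± 0.09, adjusted p = 0.4). Of 37 genes of kidney development, 15 were lower and 7 higher. GATA3, a factor of kidney and sympathetic nerve, had 13.8, 14, 14 and 12.8 CPM in WT and 3.36, 3.00, 3.39 and 3.2 CPM in the knockout (-2.07 ± 0.11), and lies in the lowered segment of chromosome 10. OSR1 fell from under 0.9 CPM (-3.37 ± 0.51). Of 47 neuronal and neuroendocrine genes, 19 were lower and 5 higher (8 without MIR210HG-KO 3), with a median of -0.22. MAOA, described above, and its paralogue MAOB (-2.38 ± 0.33) were among the falls.

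Epithelial and mesenchymal genes are set beside the 19.6% of all genes that were lower and the 15.6% that were higher. Of 31 epithelial genes, 11 were lower and 3 higher (median -0.28), and without MIR210HG-KO 3 they were 9 and 5, and these were 7 and 5 without WT 1. E-cadherin, CDH1, was lower (-0.41 ± 0.11), and SPINT2, a protease inhibitor, was higher (0.72 ± 0.09). Of 29 mesenchymal genes, 10 were lower and 5 higher (median -0.19), and 8 and 5 without MIR210HG-KO 3. VIM and CDH2 lie in lowered segments of chromosomes 10 and 18. The falls included the factor gene PRRX1 (-1.23 ± 0.20) and the hyaluronan receptor CD44 (-1.12 ± 0.24). Of 66 matrix genes, 22 were lower and 11 higher, and 20 and 17 without MIR210HG-KO 3. MFAP2 and SPOCK3, described above, led the falls with the proteoglycans GPC6 (34.3 to 37.4 CPM in WT, 5.82 to 7.21 CPM in the knockout, -2.42 ± 0.08) and SPOCK1 (-2.41 ± 0.36).

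In signalling families the ligands, receptors and targets did not move as one. The share called was 28.6% for RUNX genes, 44.7% for the TGF-beta family and 47.2% for WNT and NOTCH. It was 55.6% for chemokines and 64.9% for immediate-early genes. Among all genes it was 35.2%, with 15.6% higher and 19.6% lower. Of 47 genes of the TGF-beta family 11 were higher and 10 lower, with the ligands BMP2 and INHBE lower, as given above, and BMP5 higher at under 0.9 CPM (1.73 ± 0.43). Of 53 WNT and NOTCH genes 17 were lower and 8 higher, with the receptor FZD10 higher and HES6 (-1.15 ± 0.11) and the NOTCH ligand DLL4 (-1.06 ± 0.22) lower. Among 9 tested chemokine genes CXCL12 was the 1 that rose and 4 fell. CXCR4, its receptor, had 10.1, 12.6, 8.35 and 10.9 CPM in WT and 7.91, 5.49, 6.45 and 6.72 CPM in the knockout (-0.66 ± 0.11). Of 7 RUNX genes and partners 2 were higher and none lower (1 lower without WT 3), RUNX3 rose most, and the partner CBFB had 75.4 to 78.1 CPM in WT and 71.3 to 87.2 CPM in the knockout (-0.00 ± 0.06, adjusted p = 0.99). Many immediate-early genes and feedback inhibitors of MAPK signalling fell: 22 of 37 were lower and 2 higher, with a median of -0.36. Without MIR210HG-KO 3 these were 21 and 3, and 1 was higher without MIR210HG-KO 4 or WT 4. The phosphatase gene DUSP2 had 2.16, 3.53, 2.20 and 2.37 CPM in WT and 0.0771, 0.230, 0 and 0.246 CPM in the knockout (-4.19 ± 0.38), and the receptor signalling inhibitor SPRY2 (-1.34 ± 0.08) and the factor EGR2 (-1.83 ± 0.36) were lower.

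Of the growth and cell cycle lists, that of G2 and mitosis had 61.1% of its genes called, while DNA replication, at 34.8%, and MYC with ribosome biogenesis, at 36.8%, were near the 35.2% of all genes. MYC had 315, 334, 306 and 302 CPM in WT and 136, 128, 110.3 and 129 CPM in the knockout (-1.32 ± 0.06, adjusted p = 3.9e-17), and MYCL changed by -0.73 ± 0.09. The nucleolar genes listed with MYC were 8 lower and 6 higher of 38, MYC and MYCL included. Of 72 genes of G2 and mitosis, 40 were higher and 4 lower (median 0.19). MKI67 had 376, 394, 418 and 418 CPM in WT and 547, 534, 489.9 and 536 CPM in the knockout (0.39 ± 0.07), and the cyclin gene CCNB1 had 223 to 231 CPM and 264 to 294 CPM (0.27 ± 0.05). G2E3 (0.82 ± 0.08), in a raised segment of chromosome 14, CDCA2 (0.67 ± 0.06) and CKAP2 (0.65 ± 0.06) rose, and BORA, in the lowered segment of chromosome 13, fell (-0.87 ± 0.08). Of 46 genes of DNA replication, 10 were higher and 6 lower (3 without MIR210HG-KO 4, WT 1 or WT 4), with CHAF1B (0.45 ± 0.05) and CCNE2 (0.46 ± 0.07) higher and MCM10 lower (-0.53 ± 0.05).

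Most histone transcripts rose. For these and the p53 targets below, the shares over all genes were 15.6% higher and 19.6% lower. Of 29 tested, 20 were higher and none lower, with a median of 0.66. HIST1H2AC had 0.742, 1.08, 0.580 and 1.04 CPM in WT and 2.47, 2.84, 2.65 and 2.42 CPM in the knockout (1.59 ± 0.22), and HIST1H2BD changed by 1.33 ± 0.19. Most histone messages lack a poly(A) tail, histone genes share sequence and the labels do not say how messenger RNA was selected, so these values are uncertain. Targets of p53 were lower in 17 of 31 and higher in 1, with a median of -0.18. Without MIR210HG-KO 3 they were 15 and 0. Of these targets, 2 were higher without MIR210HG-KO 1, and 0 without WT 1, WT 3 or WT 4. EDA2R, a death receptor relative, had 21.1, 17.5, 19.9 and 20.6 CPM in WT and 4.55, 4.49, 4.36 and 3.48 CPM in the knockout (-2.22 ± 0.11), and PHLDA3 changed by -0.64 ± 0.08. SESN2 and BBC3 are in both this list and the stress lists. CDKN1A, the classic target, had 59.8, 57, 55.1 and 55.4 CPM in WT and 55.9, 50.9, 46.8 and 54.1 CPM in the knockout (-0.13 ± 0.06, adjusted p = 0.11). HEK293T cells carry large T antigen, which binds p53.

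More genes of sterol synthesis were higher than lower, and more genes of fatty acid synthesis lower than higher. Of all genes tested 15.6% were higher and 19.6% lower. Of 25 genes of cholesterol synthesis and uptake, 13 were higher and 3 lower (median 0.16), and 1 was lower without MIR210HG-KO 4 or any 1 of the WT libraries. HMGCS1, an early enzyme (0.41 ± 0.06), and SC5D, a late one (0.40 ± 0.06), were higher. INSIG1, which holds back the sterol-sensing factor and lies in the lowered segment of chromosome 7, had 233, 244, 224 and 238 CPM in WT and 119, 119, 110.5 and 125 CPM in the knockout (-0.99 ± 0.05). Of 18 genes of fatty acid synthesis, 12 were lower and 1 higher (median -0.33), among them the elongase ELOVL6 (-0.53 ± 0.06) and the desaturases FADS3 (-0.51 ± 0.10) and SCD5 (-0.46 ± 0.06).

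The lists of this paragraph had 27.4% (nuclear respiration) to 52.2% (NRF2 targets) of their genes called. Among all genes the share was 35.2%, with 15.6% higher and 19.6% lower. The proteasome (41.7%), heat shock (28%), interferon (40%) and mTOR and lysosome (39.5%) lists were near it. Of 48 proteasome genes, 16 were higher and 4 lower (median 0.12). PSMD5 rose most, followed by PSMA6 (0.84 ± 0.12) and PSMG1 (0.66 ± 0.08), and 5 of the 16 lie in raised segments of chromosomes 14 and 21. Of 25 heat shock genes 3 were higher and 4 lower: HSPA8 and HSP90AA1, given above, rose with DNAJB1 (0.52 ± 0.06), and HSPA4L fell (-0.62 ± 0.07). HSP90AA1 lies in a raised segment of chromosome 14. Of 73 nuclear genes of respiration, 11 were higher and 9 lower, and 6 and 7 without MIR210HG-KO 3. Of 13 mitochondrial messages 2 were higher, MT-ND3 (0.57 ± 0.12) and MT-ND2 (0.25 ± 0.08, adjusted p = 0.07 without MIR210HG-KO 3), and 2 lower, and without MIR210HG-KO 3 these were 1 and 3. Of the lower ones MT-CO3 is near the threshold, and 1 was lower without MIR210HG-KO 1, 2 or 4 or WT 1, 3 or 4. Interferon-stimulated genes were higher in 4 (2 without MIR210HG-KO 2, MIR210HG-KO 4, WT 1 or WT 2) and lower in 12 of 40, antioxidant targets of NRF2 higher in 6 and lower in 6 of 23, and mTOR restraint and lysosome genes higher in 8 and lower in 7 of 38. Genes related to PNMA3 were higher in 3 and lower in 5 of 18, and without MIR210HG-KO 2 these were 1 and 3. Without WT 1 or WT 4, 3 of them were lower.

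The hypoxia libraries hold the same genotypes at 1% O2. They entered the fit, where they share in the estimate of spread, and not the comparison above. Of the 7019 normoxia calls, 5013 (71.4%) were called in the same direction in hypoxia, 287 in the opposite direction and 1719 were not called. The reverse share, of hypoxia calls called the same way in normoxia, was 46.05%. The 20 largest rises and 20 largest falls were called in the same direction in hypoxia in 40 of 40 cases. MAGEA12 changed by 6.79 ± 0.17, CSAG1 by 6.71 ± 0.25, TMEM178B by -7.18 ± 0.16 and DDR2 by -3.31 ± 0.07 at 1% O2.

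Differences between oxygen levels were tested as an interaction, which called 22.5% of genes, 2045 with a positive and 2441 with a negative difference. Of the normoxia calls, 2057 (29.3%) had such a difference, and so had 14 of the 40 largest changes. CHAC1 was lowered less in hypoxia (-1.34 ± 0.10, difference 2.27 ± 0.16, adjusted p = 4.5e-12). CYBA (-1.53 ± 0.21) and KCTD12 (-0.89 ± 0.05) were also lowered less. TRIB3 (-2.09 ± 0.07) and ATF3 (-2.42 ± 0.07) were lowered more. STC2 (-0.50 ± 0.05, difference 0.92) and SLC6A9 (-0.48 ± 0.07, difference 0.81) were lowered less. ZSCAN18 (0.86 ± 0.09) and ZNF331 (0.63 ± 0.08) rose less. Each oxygen level has its own table, so oxygen level and table cannot be told apart in these differences.

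**Figure D5:**
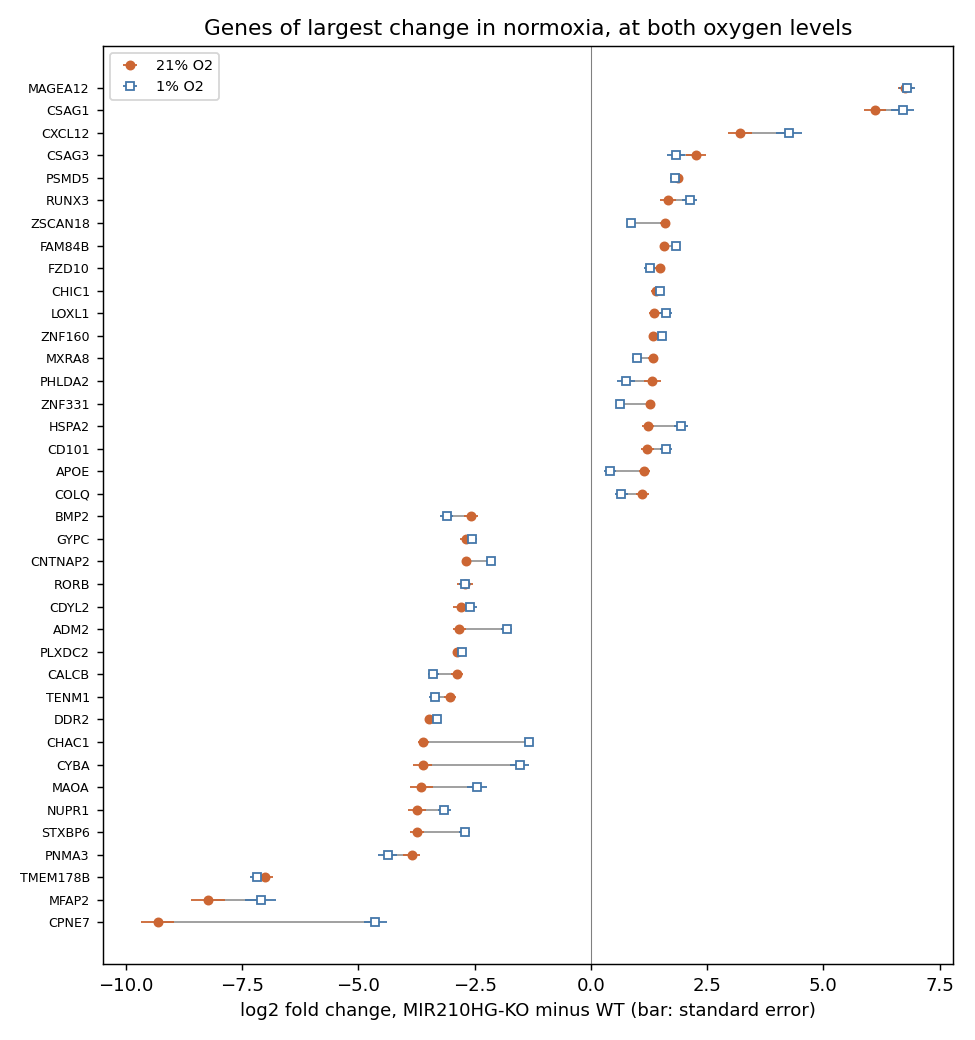
Log2 fold change, MIR210HG-KO minus WT (horizontal axis), of the genes reported here among the largest rises and falls in normoxia, at 21% O2 (orange circles) and 1% O2 (blue squares), with bars for the standard error. Each gene has the same sign at both oxygen levels, and CHAC1 and CYBA are nearer to 0 at 1% O2. The fitted values of CPNE7 and MFAP2 rest on few counts in the knockout and depend on the fit's prior count.

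MIR210-KO cells share the WT libraries of this comparison, so agreement between the knockouts is not independent, and the values are set side by side only. At normal oxygen MAGEA12 had 6 counts over the 4 MIR210-KO libraries, 65 over the 4 WT libraries and 6804 over the 4 MIR210HG-KO libraries. CSAG1 had 1 count, 32 counts and 2145 counts in the same order, and CXCL12 5, 58 and 517. Transcripts that were raised in MIR210HG-KO were thus below their WT counts in MIR210-KO for these 3 genes. CHAC1 changed by -2.67 ± 0.11 and ASNS by -1.34 ± 0.11, against -3.61 and -1.96. The effectors of the stress response had a median of -0.32 there and -0.72 in MIR210HG-KO. TMEM178B changed by 0.03 ± 0.09 in MIR210-KO, against -7.02. CPNE7 had 1177 counts in MIR210-KO and MFAP2 had 1887, against 1 and 2 in MIR210HG-KO. MIR210HG itself changed by -0.71 ± 0.15 in MIR210-KO. Its tested neighbours within 500 kb had a median of -0.68 there, and protein-coding genes of chromosome 11 a median of -0.48. The value is thus near that of its region.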

How the data were processed

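RNA sequencing libraries of HEK293T cells were analysed from 2 deposited tables of raw counts per gene, 1 for normoxia and 1 for hypoxia, with 58735 genes each and a column per library. Per the labels' protocols, total RNA was taken with TRIzol and libraries were made with an NEBNext Ultra kit. The authors' counts were made on GRCh38 with STAR 2.6.1d and featureCounts 1.5.0-p3, per the submitters' processing notes, which also name DESeq2 1.20.0 and edgeR 3.24.3. The strand setting of the counting is not given in the sources used here, so overlapping genes on opposite strands cannot be told apart (177 of 360 genes named by the rule below overlap one).

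Samples were grouped by their labels. All 24 libraries entered 1 model with a mean for each of 6 groups, fitted with edgeR 4.0.16 in R 4.3.3 after its filter on low counts, which left 19952 genes, and TMM scaling. Contrasts were tested with edgeR's quasi-likelihood test, 2-sided, with Benjamini-Hochberg adjustment over all genes tested, and called at an adjusted p under 0.05. Standard errors come from the test statistic. Total counts of 25556776 to 31547054 per library set the precision, and intervals (95%, exact) and the limit of 3 counts cover counting error only. The alternatives were other scalings, filters and libraries in the fit, DESeq2 1.42.0, a minimum fold, leaving out each library and a block for the replicate number. Promoter and microRNA sequences came from RefSeq tables (GRCh38.p14), and GC content from the GENCODE annotation on hand.

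The text names MIR210HG and MIR210, the 20 largest rises and 20 largest falls among called protein-coding genes whose libraries do not overlap and whose higher group averages 5 CPM or more, 5 non-coding genes each way from 2 CPM, the 5 largest CPM differences each way, up to 4 called members of each gene list (all members of lists with at most 12 tested), fixed genes, neighbours within 500 kb and 3 genes of each window of 10 Mb. Not every gene the rule names is described, and some genes that it names are not reported here. The comparison, the 42 gene lists and the rule were chosen with earlier results of these data known. Same-numbered libraries were not treated as pairs.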

Additional observations from a re-analysis of the deposited data

Results flagged for a closer look

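In 29 of 364 groups of 4 libraries checked (182 genes, WT and MIR210HG-KO in normoxia), 1 library stood apart from the other 3 by Dixon's criterion, for which chance gives about 1 group in 20. MIR210HG-KO 3 was the library in 13 of them, and WT libraries in 10. MIR210HG-KO 1 stood apart in MAGEA2B (0.926 CPM, others 0.307 to 0.410) and SORBS2 (0.154 CPM, others all at 0). MIR210HG-KO 2 stood apart in CPNE7 (0.0384 CPM, others all at 0), JDP2 (9.10 CPM, others 7.53 to 7.78), MAGEA2 (1.15 CPM, others 0.694 to 0.708) and MFAP2 (0.0768 CPM, others all at 0). MIR210HG-KO 3 stood apart in CKAP2 (253 CPM, others 206 to 213), COL4A2 (166 CPM, others 213 to 221), CSAG3 (6.71 CPM, others 4.82 to 4.88) and HMGN1 (1022 CPM, others 786 to 796). It also stood apart in HSP90AA1 (3342 CPM, others 2983 to 3018), HSPA4L (80.5 CPM, others 71.1 to 72.7), IARS (474 CPM, others 519 to 526) and LAMA3 (17.8 CPM, others 19.4 to 19.6). It also stood apart in MT-ND3 (1156 CPM, others 853 to 889.9), OSR1 (0.149 CPM, others 0.0384 to 0.0410), PSMG1 (134 CPM, others 112 to 114) and RPL15 (2414 CPM, others 2145 to 2187). It also stood apart in RUNX3 (7.75 CPM, others 11.8 to 12.2). WT 1 stood apart in ASNS (22 CPM, others 19.2 to 19.5), LAMA3 (59.2 CPM, others 63.9 to 64.2) and MAOA (5.49 CPM, others 6.10 to 6.19). WT 2 stood apart in CSAG4 (0.0401 CPM, others all at 0), DUSP2 (3.53 CPM, others 2.16 to 2.37) and SPRY2 (19.9 CPM, others 18.2 to 18.2). WT 3 stood apart in EGR2 (0.503 CPM, others 0.876 to 0.923), MT-CO1 (8685 CPM, others 9279.9 to 9375) and STC1 (1.12 CPM, others 1.71 to 1.75). WT 4 stood apart in HIF3A (0 CPM, others 0.101 to 0.120).

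In 75 of the same 182 genes the log2 change of MIR210HG-KO against WT differed between hypoxia and normoxia (interaction term, edgeR's quasi-likelihood test, adjusted p under 0.05). Over all genes tested the share was 22.5%. The 182 genes were taken by the naming rule, which favours genes called in normoxia, so the 2 shares are not alike. Each value is the change in hypoxia minus the change in normoxia. Oxygen level and table cannot be told apart in these differences.

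The following genes were called lower in normoxia and changed more positively in hypoxia. ADM2 differed by 1.02, ALDH1L2 by 0.43, CDH1 by 0.50, CDH2 by 0.19 and CHAC1 by 2.27. CNTNAP2 differed by 0.53, CPNE7 by 4.67, CYBA by 2.09, ELOVL6 by 0.23 and INSIG1 by 0.26. JDP2 differed by 0.62, KCTD12 by 1.13, LHX1 by 0.49, MAGEB2 by 0.65 and MAOA by 1.2. NPTX1 differed by 0.86, PCK2 by 0.59, PHLDA3 by 0.46, PRKDC by 0.34 and SCD5 by 0.39. SESN2 differed by 0.45, SLC1A1 by 0.88, SLC6A9 by 0.81, SLC7A11 by 0.63 and STC1 by 1.64. STC2 differed by 0.92, STXBP6 by 1.03 and TMEM80 by 0.59.

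A second group was called lower in normoxia and changed more negatively in hypoxia. ATF3 differed by -0.90, BBC3 by -0.61, CALCB by -0.51, CARS by -0.34 and CTH by -0.32. DDIT3 differed by -0.82, DLL4 by -1.06, EIF4EBP1 by -0.62, FADS3 by -0.96 and GARS by -0.49. HERPUD1 differed by -1.30, IARS by -0.26, INHBE by -0.83, MT-RNR2 by -0.51 and MYC by -0.63. NEFL differed by -0.40, NEFM by -0.52, OSR1 by -4.22, PDIA4 by -0.67 and SLC2A3 by -0.59. TRIB3 differed by -1.37, VEGFA by -0.38, VIM by -0.55, XBP1 by -0.79 and YARS by -0.39.

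Among genes called higher in normoxia, these changed more positively in hypoxia. ACTB differed by 0.52, CARS2 by 0.41, COL4A2 by 0.94, EGLN3 by 0.29 and FAM84B by 0.24. HMGCS1 differed by 0.25, HSP90AA1 by 0.28, HSPA2 by 0.71, HSPA8 by 0.33 and LAMP1 by 0.39. MKI67 differed by 0.38, NRAV by 0.59 and TECPR2 by 0.31.

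Others called higher in normoxia changed more negatively in hypoxia. APOE differed by -0.73, HIST1H2AC by -0.92, KRT8 by -0.44, PSMG1 by -0.47 and SEL1L by -0.43. ZNF331 differed by -0.63 and ZSCAN18 by -0.73.

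Both remaining genes were not called in normoxia and changed more negatively in hypoxia. HSPA5 differed by -2.09 and KRT18 by -0.56.

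The values of OSR1 and CPNE7 rest on few counts and depend on the fit's prior count, so they are not measured sizes. OSR1 had 79 counts in WT and 7 in MIR210HG-KO in normoxia, and 116 and 0 in hypoxia. CPNE7 had 946 and 1 counts in normoxia, and 572 and 20 in hypoxia.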

How the results depend on the processing

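The counts of genes kept within 1.5 times their values of 3107 higher and 3912 lower under other scalings, filters, tools and sets of libraries, from 2777 higher (upper quartile factors) to 3745 (the 12 normoxia libraries) and from 3267 lower (no filter on low counts) to 4174 (upper quartile factors). The balance of directions depended on these choices. RLE factors gave 3579 higher and 3570 lower, DESeq2 3699 and 3644, and leaving out the mitochondrial genome 3595 and 3536. No filter gave 3497 and 3267, and upper quartile factors 2777 and 4174. The excess of lower calls is therefore not firm. Leaving out 1 library gave 2785 to 3160 higher and 3343 to 3593 lower. A test against a fold of 1.5 called 147 higher and 708 lower in normoxia, 912 and 1469 in hypoxia, and 147 differences between oxygen levels. The exact motif was in 3.19% of stress promoters, against 19.1% for the form with free bases. The chemokine median of -0.33 ran from -0.422 (without WT 2) to 0.074 (without MIR210HG-KO 1) when 1 library was left out, and was 0.04 without MIR210HG-KO 4. The blood and endothelial median of 0.24, over 5 tested genes, was -0.0643 over 4 genes with the 12 normoxia libraries. It was -0.0663 over 2 genes with the 8 compared. The filter on low counts was applied anew in these fits, so the medians are over different sets of genes. The cause of the chemokine shifts was not tested. Depth limits the genes with few counts, such as BTK, which lost its call with the 8 libraries and with the replicate block.

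Each gene's deviation from the mean of its group was correlated between WT and MIR210HG-KO libraries over 5000 genes. These are not correlations of expression levels. Same-numbered libraries gave 0.384, 0.236, -0.019 and 0.098 for numbers 1 to 4. Pairs of different number ran from -0.537 (WT 4 with MIR210HG-KO 1) to 0.494 (WT 4 with MIR210HG-KO 3). These values cannot show whether same-numbered libraries shared a batch, which was not tested. A fit with the replicate number as a block called 3075 higher and 3883 lower.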
